A study of Mus musculus with 11 samples.

Results

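Whether the CpG response differed between the Ly-6D+ and Ly-6D- common lymphoid progenitors (CLPs) of mouse bone marrow was asked with one contrast. The CpG minus PBS difference in Ly-6D- CLPs was subtracted from the CpG minus PBS difference in Ly-6D+ CLPs. The contrast used all 11 arrays of the series and 22180 genes, each read by 1 probe set. C57BL/6 mice received 50 µg of CpG1826, an oligonucleotide that activates Toll-like receptor 9, every other day for 10 days, or phosphate-buffered saline (PBS). CLPs were sorted at day 10, and RNA was measured on Affymetrix Mouse Gene 2.0 ST arrays after amplification from 5 ng. The groups were Ly-6D+ CLPs after CpG (3 arrays), Ly-6D+ CLPs after PBS (2 arrays), Ly-6D- CLPs after CpG (3 arrays) and Ly-6D- CLPs after PBS (3 arrays). The labels name no other allele or agent, give no age, and do not say whether arrays stand for separate mice or pools. P-values therefore measure the spread between these arrays, which may be technical. CpG was given to the whole animal, so the arrays do not separate direct contact of the CLPs with CpG from signals of other cells.

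CLPs carry the interleukin-7 receptor and give rise to B cells and other lymphoid cells. Those without Ly-6D on their surface keep a broader lymphoid potential, and Ly-6D marks the CLPs that are moving towards the B lineage. Toll-like receptor 9 recognises CpG DNA in endosomes and signals through MyD88 to NF-kB and interferon regulatory factors. A positive difference below means that the CpG effect was higher in Ly-6D+ CLPs, and a negative one that it was higher in Ly-6D- CLPs. All values are log2, so that 1 stands for 2-fold.

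The arrays were alike in their overall level, with medians between 3.85 and 3.96. Ly6d, the gene of the sorting marker, read between 12.55 and 12.61 on the 5 Ly-6D+ arrays and between 7.47 and 8.50 on the 6 Ly-6D- arrays, which sets the populations apart as labelled. The CLP genes Il7r, Flt3, Kit and Dntt averaged 10.14, 10.70, 8.74 and 12.17 over all arrays, against a median gene of 4.33. Ly6a and Rag1 are not analysed here. In RNA from bulk sorted cells, fewer cells of a type and less RNA per cell cannot be told apart.

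No gene passed the test of a different CpG effect. With limma's moderated test and Benjamini-Hochberg adjustment at 0.05 over all genes, 0 of 22180 genes (0%) were called, and the smallest adjusted p was 0.231, for the adaptor gene Dok3. At an unadjusted p below 0.05, 1413 genes (6.37%) were found, 676 with a higher effect in Ly-6D+ CLPs (3.05%) and 737 with a lower one (3.32%). The median difference over all genes was 0.00, and the middle 50% lay between -0.16 and 0.16. Without Ly-6D+ PBS replicate 1, 1 gene passed, an immunoglobulin kappa variable segment (limma adjusted p = 0.00153). Its call rested on the only array then left in that group, which read 8.44, while the 10 others read 1.74 to 3.11.

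The precision bounds what a count of 0 can mean. The standard error of the difference had a median of 0.21, larger than the 0.15 and 0.14 of the CpG effects in Ly-6D+ and Ly-6D- CLPs alone. For 18832 genes (84.9%) the 95% interval of the difference lay within 2-fold either way. For the remainder, a difference of 2-fold or more lies within the interval. Across genes the effects of the populations, which share no array, had a Pearson r of 0.249 and a Spearman rho of 0.157. Genes are not independent replicates, so these are descriptions.

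**Figure D1:**
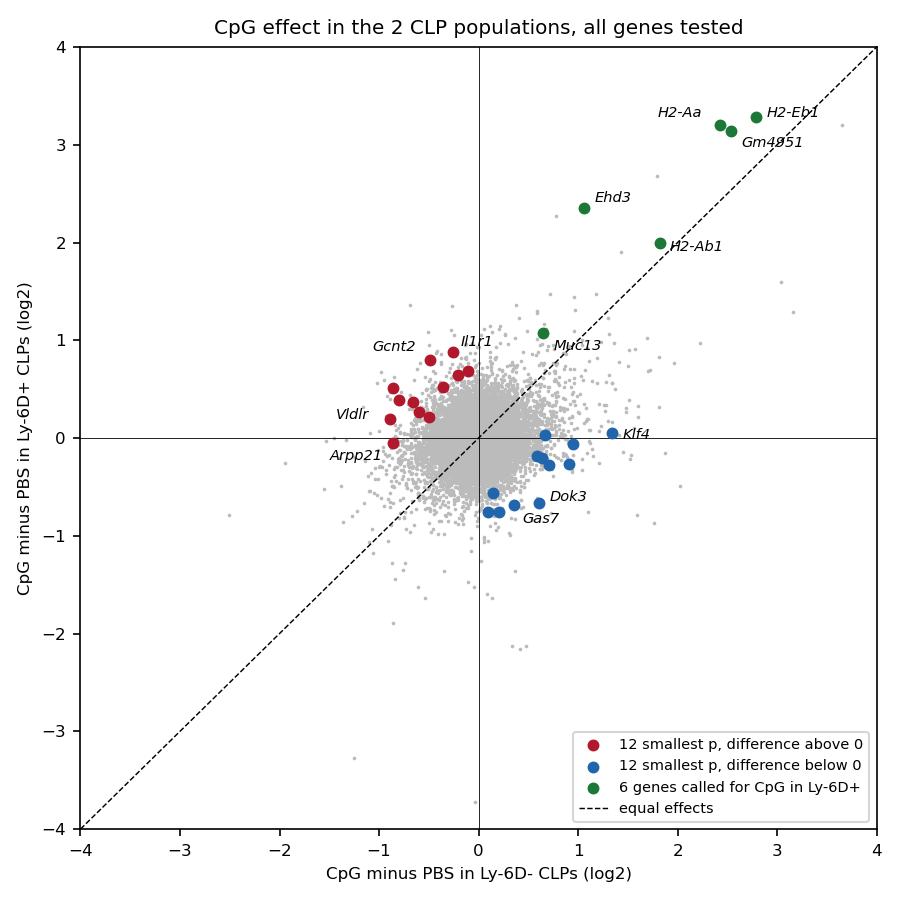
CpG minus PBS difference (log2) in Ly-6D- CLPs (horizontal axis) and in Ly-6D+ CLPs (vertical axis); each point is a gene, and the dashed line marks equal effects. H2-Aa, H2-Eb1 and H2-Ab1 lie high on both axes, while Dok3 and Gas7 lie below and Gcnt2 and Vldlr above the line with effects of opposite sign.

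Among the 24 genes with the smallest p, 12 in each direction, 21 had effects of opposite sign in the 2 populations. Their adjusted p ran from 0.231 to 0.488, and their differences were 0.63 to 1.38 in size. In 15 of the 24, CpG and PBS arrays did not overlap in either population and were apart in opposite directions, a pattern of 196 genes in all (0.884%). Groups apart in the same direction were found for 815 genes (3.67%). Since these genes were picked by the difference itself, that share is a description. The CpG effect alone passed its test in Ly-6D- CLPs for 12 of the 24 and in Ly-6D+ CLPs for 0.

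The genes with a higher effect in Ly-6D+ CLPs were led by Gcnt2, which encodes an enzyme that branches poly-N-acetyllactosamine chains on the cell surface. Gcnt2 read 5.64 and 5.54 in Ly-6D+ CLPs after PBS and 6.30, 6.65 and 6.22 after CpG. In Ly-6D- CLPs it read 7.86, 7.97 and 7.93 after PBS and 7.45, 7.29 and 7.56 after CpG. All CpG arrays thus lay above PBS in Ly-6D+ CLPs and below PBS in Ly-6D- CLPs. The difference was 1.29 (SE 0.19, 95% interval 0.88 to 1.70, limma adjusted p = 0.355). The 2 further probe sets of Gcnt2 gave 0.48 and 1.05.

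Cd6, a scavenger-receptor-like protein best known from T cells, read 6.49 and 6.55 in Ly-6D+ CLPs after PBS and 6.83, 6.93 and 6.91 after CpG. The Ly-6D- arrays read 6.44, 6.36 and 6.68 after PBS and 5.64, 5.91 and 5.93 after CpG. The populations were 0.02 apart after PBS and 1.06 apart after CpG, with a difference in effect of 1.04 (SE 0.17, 95% interval 0.66 to 1.41, limma adjusted p = 0.375). Only the fall in Ly-6D- CLPs passed its own test, at -0.66 (adjusted p = 0.0392, limma).

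Vldlr, the very-low-density lipoprotein receptor, read 5.75, 5.67 and 5.39 in Ly-6D- CLPs after PBS and 4.68, 4.58 and 4.89 after CpG, a fall that passed its test. In Ly-6D+ CLPs it stood near the median gene, at 3.85 and 4.04 after PBS and 4.25, 4.08 and 4.09 after CpG. The difference was 1.08 (SE 0.19). Arpp21, a cAMP-regulated phosphoprotein, differed in another way: its Ly-6D+ arrays overlapped. They read 7.26 and 7.30 after PBS and 7.26, 7.27 and 7.15 after CpG, while the Ly-6D- arrays read 7.06, 6.94 and 6.90 after PBS and 6.09, 5.93 and 6.29 after CpG.

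Il1r1, the signalling receptor of interleukin-1, showed the reverse of Arpp21. It read 7.72 and 7.79 in Ly-6D+ CLPs after PBS and 8.72, 8.79 and 8.40 after CpG. In Ly-6D- CLPs the values overlapped, with 9.29, 9.49 and 9.19 after PBS and 8.81, 9.0 and 9.37 after CpG. The difference for Il1r1 was 1.14 (SE 0.23, 95% interval 0.62 to 1.66, limma adjusted p = 0.488). The remaining genes of this direction were Sv2a (1.38), Rhobtb3 (1.19), Nupr1l (0.87), Cldn12 (0.87), Upk3bl (0.85), Olfr679 (0.80) and Zfp113 (0.70). Olfr679 and Upk3bl had low mean levels, 3.05 and 4.05, and their differences were 0.27 and 0.42 when 16 was added to the linear values to damp low signals.

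**Figure D2:**
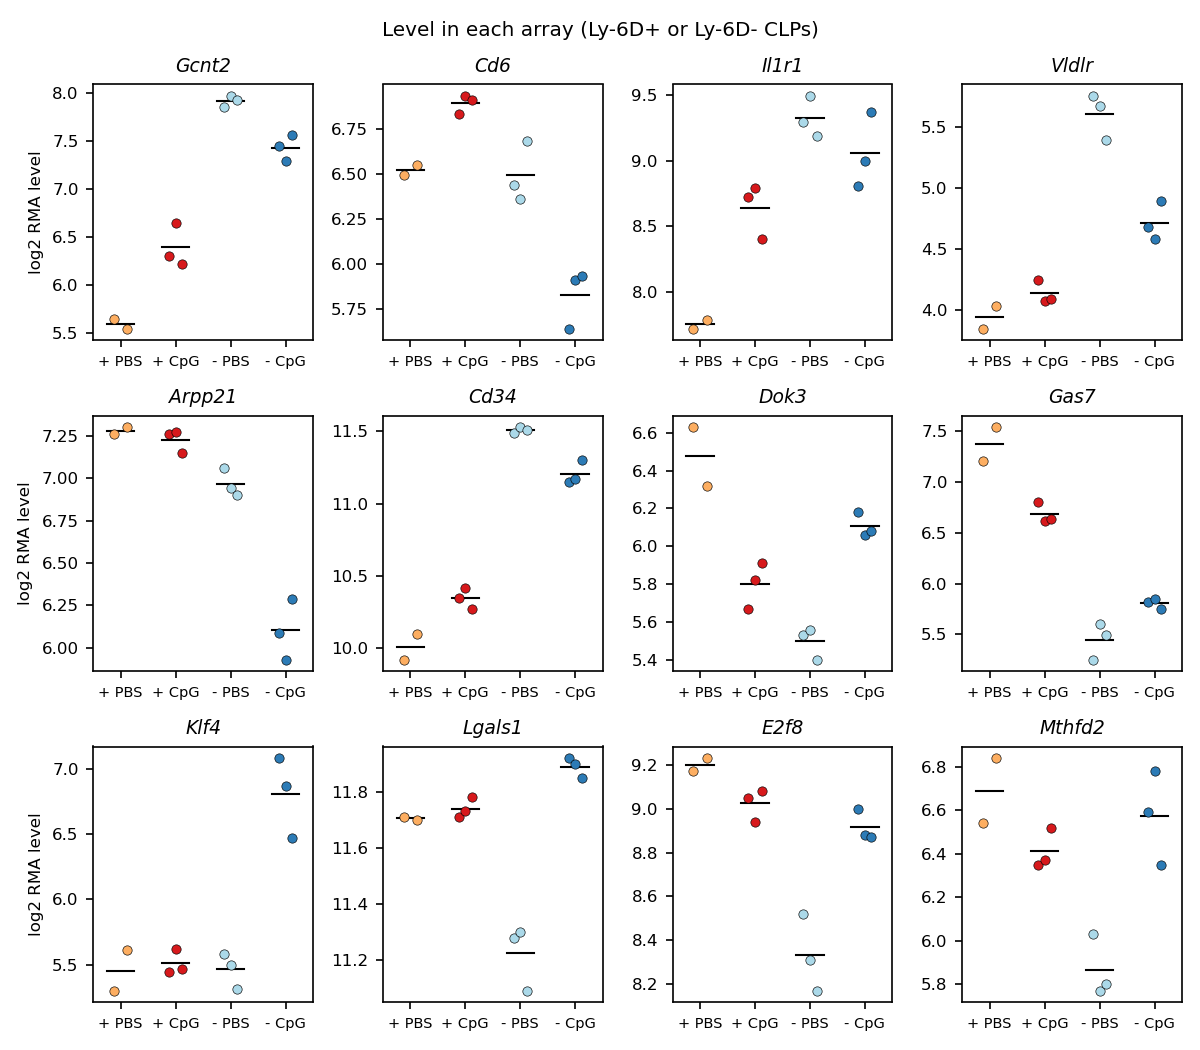
Log2 level on every array for leading genes, with CpG and PBS arrays of each population side by side; each point is 1 array and each short line a group mean. Dok3 and Gas7 were lower after CpG in Ly-6D+ CLPs and higher in Ly-6D- CLPs, and Gcnt2 and Cd6 the reverse.

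Dok3, an adaptor that restrains signalling from immune receptors, had the smallest p of all genes and a lower effect in Ly-6D+ CLPs. It read 6.63 and 6.32 there after PBS and 5.67, 5.82 and 5.91 after CpG. In Ly-6D- CLPs Dok3 read 5.53, 5.56 and 5.40 after PBS and 6.18, 6.06 and 6.08 after CpG. No CpG array overlapped the PBS arrays of its population, and the order of the populations turned: Ly-6D+ CLPs were higher by 0.98 after PBS and differed by -0.30 after CpG. The difference in effect was -1.28 (SE 0.16, 95% interval -1.64 to -0.92, limma adjusted p = 0.231).

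Gas7, a growth-arrest-specific protein that binds membranes and actin, read 7.21 and 7.54 in Ly-6D+ CLPs after PBS and 6.80, 6.62 and 6.64 after CpG. On the Ly-6D- side it read 5.25, 5.60 and 5.49 after PBS and 5.82, 5.85 and 5.75 after CpG. The groups did not overlap in either population, and the difference was -1.04 (SE 0.18). A second probe set of Gas7 gave -0.16, so the probe sets disagree in size.

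Klf4, a zinc-finger transcription factor known from monocyte differentiation, read 5.58, 5.50 and 5.31 in Ly-6D- CLPs after PBS and 7.08, 6.87 and 6.47 after CpG. Its Ly-6D+ arrays overlapped, at 5.30 and 5.61 after PBS and 5.44, 5.62 and 5.47 after CpG. The rise of 1.34 in Ly-6D- CLPs passed its test (adjusted p = 0.0101, limma), but the difference of -1.29 between the populations did not (adjusted p = 0.488, limma). Lgals1, which encodes galectin-1, a secreted lectin, had the same shape at a high level. Its Ly-6D- arrays read 11.28, 11.30 and 11.09 after PBS and 11.92, 11.90 and 11.85 after CpG, and all Ly-6D+ arrays lay between 11.70 and 11.78.

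E2f8, an atypical E2F factor of the cell cycle, read 8.52, 8.31 and 8.17 in Ly-6D- CLPs after PBS and 9.0, 8.88 and 8.87 after CpG. Its Ly-6D+ arrays read 9.17 and 9.23 after PBS and 9.05, 8.94 and 9.08 after CpG, so that the gap between populations was 0.87 after PBS and 0.11 after CpG. Mthfd2, a mitochondrial enzyme of one-carbon metabolism, read 6.54 and 6.84 in Ly-6D+ CLPs after PBS and 6.35, 6.37 and 6.52 after CpG. On the Ly-6D- arrays it read 6.03, 5.77 and 5.80 after PBS and 6.59, 6.78 and 6.35 after CpG. The differences were -0.76 for E2f8 and -0.98 for Mthfd2. The kinesin gene Kifc5b had a difference of -0.85 and Upb1, an enzyme of pyrimidine breakdown, one of -1.01. The others were Scpep1os (-1.17), Skor1 (-0.96), Akap6 (-0.85) and Defa-ps12 (-0.71), all 4 with mean levels below the median gene. When 16 was added to the linear values to damp low signals, these became -0.47 for Scpep1os, -0.33 for Skor1, -0.22 for Akap6 and -0.17 for Defa-ps12.

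In 21 of these 24 genes the gap between the populations was smaller in size after CpG than after PBS. In some of the 21 the order of the populations turned. The share over all genes was not counted. The gap narrowed for Gcnt2 from -2.33 to -1.05, for Il1r1 from -1.57 to -0.42 and for Gas7 from 1.92 to 0.88 (Ly-6D+ minus Ly-6D-). For Sv2a (-0.84 to 0.53), Skor1 (0.53 to -0.43) and Olfr679 (-0.40 to 0.39) it changed sign. It widened for Cd6, Arpp21 and Klf4. Of the 12 genes with a higher effect in Ly-6D+ CLPs, 10 had been higher in Ly-6D- CLPs after PBS. Of the 12 with a lower effect, 1 had been. The gaps are the same 4 group means arranged in another way, so they add no separate evidence.

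The mitotic genes had the most one-sided signs of the 25 gene lists. All 16 measured G2/M genes had a negative difference, with a median of -0.35 against 0.00 over all genes, and 0 of them passed the test. At an unadjusted p below 0.05, 7 of the 16 were lower and 0 higher, against 3.32% and 3.05% of all genes. That count was 4 without Ly-6D+ CpG replicate 1, 3 without Ly-6D+ PBS replicate 1 and 4 without Ly-6D+ PBS replicate 2. It was 2 with the replicate number as a block within treatment, and 10 with a variance trend and robust estimation or with low signals damped. These genes are transcribed together as cells divide, so they are not independent of each other. In Ly-6D+ CLPs the median effect was -0.10, and in the Ly-6D- population it was 0.24. Averaged over the 16 genes, the arrays read 9.36 to 9.38 in Ly-6D+ CLPs after PBS, 9.23 to 9.33 there after CpG, 8.88 to 9.12 in Ly-6D- CLPs after PBS and 9.22 to 9.31 there after CpG. The Ly-6D- PBS arrays were thus the low ones, and the other 3 groups lay close together.

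Aurkb, the kinase of the chromosomal passenger complex, read 9.32, 9.38 and 9.36 in Ly-6D- CLPs after PBS and 9.75, 9.78 and 9.64 after CpG. In Ly-6D+ CLPs Aurkb overlapped, with 9.90 and 9.72 after PBS and 9.75, 9.60 and 9.72 after CpG, and its difference was -0.49 (SE 0.14, limma adjusted p = 0.622). Bub1, a kinase of the spindle checkpoint, read 7.64, 7.97 and 7.74 in Ly-6D- CLPs after PBS and 8.25, 8.21 and 8.05 after CpG. In Ly-6D+ CLPs it read 8.21 and 8.25 after PBS and 8.06, 8.17 and 8.15 after CpG, a small shift the other way. Its gap between populations was 0.45 after PBS and -0.04 after CpG. The mitotic kinases Plk1 and Ttk had differences of -0.41 and -0.46, and the checkpoint kinase gene Bub1b one of -0.40. Of the 16 measured G1/S genes, 13 had a negative difference, with a median of -0.12, and 1 was lower at an unadjusted p below 0.05, the cyclin gene Ccne1 (-0.50).

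Promoters of G2/M genes are known for the cell-cycle homology region (CHR), an element bound by the DREAM and MuvB complexes, here searched as TTTGAA or TTCGAA on both strands. It was searched in RefSeq promoter windows of 300 bases (GRCm38.p6). Of the 16 G2/M genes, 14 had a window and 12 of the 14 held a match, against 19.2% of 32851 windows. A match is a description of the letters and not a bound site. The list was made of known G2/M genes, so nothing about the CpG effect is read from the matches. Aurka, Mki67 and Cdc20 also held a match (unadjusted p = 0.456, 0.315 and 0.287 for the difference, limma). The 4 members past an unadjusted p of 0.05 that held a match are shown, 5′ to 3′ on the gene's strand, with the match in capitals (TTCAAA is TTTGAA on the other strand):
Plk1, chr7:122159453-122159482 (+): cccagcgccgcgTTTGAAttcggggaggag
Bub1, chr2:127831828-127831857 (-): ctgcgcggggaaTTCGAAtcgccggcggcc
Bub1b, chr2:118598231-118598260 (+): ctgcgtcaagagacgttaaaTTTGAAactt
Ttk, chr9:83834684-83834713 (+): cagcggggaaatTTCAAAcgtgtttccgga

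The early lymphoid genes had the opposite sign. Of 16 measured, 15 had a positive difference, with a median of 0.33, and 0 passed. At an unadjusted p below 0.05, 4 were higher and 0 lower. All genes together gave 3.05% and 3.32%. The count of 4 rose to 9 when the Ly-6D- CpG group lost its replicate 3. It fell to 3 when either CpG group lost its replicate 2. Blocking by replicate number within treatment also gave 3. Without Ly-6D+ PBS replicate 1, 3 were higher and 1 lower, with 14 positive and 2 negative differences. In Ly-6D+ CLPs the median effect was -0.01, and in the Ly-6D- population it was -0.28. Il7r, the interleukin-7 receptor chain on which B lymphopoiesis depends, read 10.03, 10.08 and 10.06 in Ly-6D- CLPs after PBS and 9.17, 9.05 and 9.53 after CpG. Its Ly-6D+ arrays overlapped, at 10.71 and 10.76 after PBS and 10.70, 10.85 and 10.58 after CpG. The difference for Il7r was 0.78 (SE 0.19, 95% interval 0.36 to 1.20, limma adjusted p = 0.583).

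Rag2, a subunit of the recombinase that joins antigen-receptor genes, read 9.61, 9.71 and 9.48 in Ly-6D- CLPs after PBS and 8.69, 8.92 and 8.92 after CpG. In Ly-6D+ CLPs it read 9.80 and 9.89 after PBS and 9.77, 9.77 and 9.57 after CpG. The falls of Il7r and Rag2 in Ly-6D- CLPs passed their own tests (adjusted p = 0.0300 and 0.0221, limma), and neither difference between populations did. Ccr9, a chemokine receptor of thymus-seeding cells and plasmacytoid dendritic cells, had a difference of 0.99, and its gap between the populations was 0.58 after PBS and 1.57 after CpG. The cytokine receptor genes Flt3 and Kit had differences of 0.28 and 0.41. Dntt, the template-free DNA polymerase of junctional diversity, had one of 0.34.

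The B-lineage specification genes did not lean one way. Of 23 measured, 11 had a positive and 12 a negative difference, the median was -0.05, and the median effect was -0.29 in each population. At an unadjusted p below 0.05, 3 were higher and 3 lower, against 3.05% and 3.32% of all genes. Bank1, a scaffold of B-cell receptor signalling, and Rag2 were among the higher ones, with Bank1 at 0.68. Pou2af1, a B-cell coactivator (-1.03), and Foxo1, a factor upstream of the B-lineage programme (-0.54), were among the lower ones. A further probe set of Foxo1 gave -0.33 (SE 0.22). The central factors Ebf1 and Pax5 had differences of 0.21 (95% interval -0.37 to 0.78) and -0.05 (-0.60 to 0.51). Neither interval reaches a 2-fold difference.

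**Figure D3:**
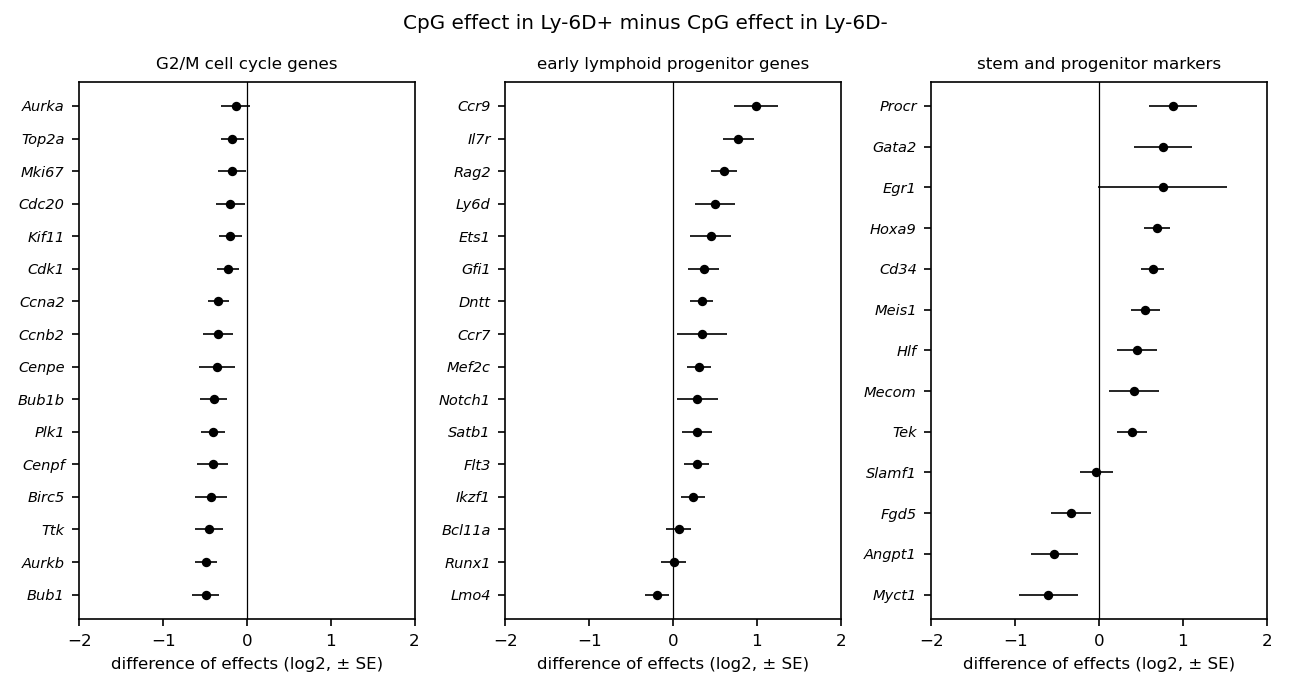
Difference of CpG effects (log2, horizontal axis) for each measured member of 3 gene lists, 1 panel per list and 1 row per gene; points are the differences and bars their standard errors. All 16 G2/M genes lie below 0, and 15 of 16 early lymphoid genes and 9 of 13 stem and progenitor genes above it.

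Of 13 measured stem and progenitor genes, 9 had a positive difference, with a median of 0.45, and 0 passed. At an unadjusted p below 0.05, 6 were higher and 0 lower, against 3.05% and 3.32% of all genes. These shares of all genes also stand beside the lists below. Without Ly-6D+ PBS replicate 1, 3 were higher. Without Ly-6D+ CpG replicate 3, 4 were higher and 1 lower. With the replicate number as a block within population, 4 were higher and 2 lower. Cd34, a sialomucin of haematopoietic progenitors, read 9.92 and 10.10 in Ly-6D+ CLPs after PBS and 10.35, 10.42 and 10.27 after CpG. In Ly-6D- CLPs Cd34 read 11.49, 11.53 and 11.51 after PBS and 11.15, 11.17 and 11.30 after CpG. Its groups were apart in opposite directions, with a difference of 0.64 (SE 0.14, limma adjusted p = 0.501).

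Hoxa9, a homeobox factor of progenitor self-renewal, read 7.55 and 7.48 in Ly-6D+ CLPs after PBS and 7.78, 7.86 and 7.88 after CpG. In Ly-6D- CLPs it read 8.37, 8.20 and 8.28 after PBS and 7.82, 7.82 and 8.12 after CpG. The populations were separated by -0.77 after PBS and by -0.08 after CpG, where their arrays overlapped. Meis1, a cofactor of HOX proteins, had a difference of 0.55, and its gap was -0.92 after PBS and -0.37 after CpG. Over the whole list the median gap was -1.13 after PBS and -0.62 after CpG. The summed level of the list, as a mean of log2 values, was 5.04 to 5.11 in Ly-6D+ CLPs after PBS, 5.02 to 5.33 after CpG, and 6.13 to 6.21 and 5.78 to 6.17 in Ly-6D- CLPs.

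Of 24 granulocyte and monocyte markers, 13 had a positive and 11 a negative difference (median 0.05), and 7 were lower and 1 higher at an unadjusted p below 0.05. That balance lay between 2 unlike PBS arrays: it was 4 positive and 20 negative (median -0.20) without Ly-6D+ PBS replicate 1, and 16 and 8 (median 0.22, 4 higher) without Ly-6D+ PBS replicate 2. Prtn3, a serine protease of primary granules, read 9.06, 9.42 and 9.18 in Ly-6D- CLPs after PBS and 10.50, 10.39 and 9.88 after CpG. Its Ly-6D+ arrays overlapped, at 8.17 and 8.91 after PBS and 8.15, 8.65 and 8.16 after CpG, and its difference was -1.25 (SE 0.34, limma adjusted p = 0.622). Mpo, the myeloperoxidase of the same granules, read 9.74 and 10.30 in Ly-6D+ CLPs after PBS and 9.03, 9.33 and 9.08 after CpG, while its Ly-6D- arrays overlapped, at 10.87, 10.79 and 10.64 after PBS and 11.12, 11.09 and 10.58 after CpG. The larger effect was that in Ly-6D+ CLPs for Mpo (-0.87) and that in Ly-6D- CLPs for Prtn3 (1.04). Neither effect passed its own test (adjusted p = 0.287 and 0.0787, limma).

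F13a1, the coagulation factor XIII subunit made by monocytes, read 6.98, 6.81 and 6.58 in Ly-6D- CLPs after PBS and 9.09, 8.65 and 8.06 after CpG. In Ly-6D+ CLPs it read 4.75 and 4.74 after PBS and 5.62, 5.47 and 5.63 after CpG. It was higher after CpG on every array of both populations, and its difference was -0.98 (SE 0.32, limma adjusted p = 0.663). The chemokine receptor genes of monocytes Ccr2 and Cx3cr1 had differences of -0.66 and -0.83. The granulocyte markers S100a8, Camp and Ltf, picked from the list after their values were seen, had differences of 0.03, 0.27 and 0.24. S100a8 averaged 12.60 over all arrays. The mean level of the 24 markers was 7.49 to 8.02 in Ly-6D+ CLPs after PBS, 7.78 to 8.04 after CpG, and 8.12 to 8.39 and 8.32 to 8.67 in Ly-6D- CLPs. The part of other cells in the sorted samples was not tested.

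Of 7 colony-stimulating factor receptor genes, 6 had a negative difference (median -0.23), and 2 were lower at an unadjusted p below 0.05. Without Ly-6D+ PBS replicate 2 they were 3 positive and 4 negative (median -0.02, 1 higher and 1 lower). Leaving out Ly-6D+ PBS replicate 1 gave a median of -0.40, Ly-6D+ CpG replicate 3 one of -0.11, and Ly-6D- PBS replicate 3 one of -0.15. Csf2rb2, the interleukin-3 receptor chain of mice, read 6.61, 6.56 and 6.05 in Ly-6D- CLPs after PBS and 8.46, 8.18 and 7.69 after CpG. In Ly-6D+ CLPs it read 8.37 and 7.93 after PBS and 8.90, 8.83 and 8.78 after CpG. All CpG arrays were higher in both populations, by more in Ly-6D- CLPs, with a difference of -1.02 (SE 0.31, limma adjusted p = 0.636). Csf1r, the macrophage colony-stimulating factor receptor, had a difference of -0.77, and Csf3r, the granulocyte one, 0.50. With single arrays left out these ran from -1.04 to -0.51 for Csf1r and from 0.09 to 0.92 for Csf3r. Of 12 myeloid and dendritic transcription factors, 8 had a negative difference (median -0.22), with Klf4, Irf8 (-0.48) and Id2 (-0.58) lower at an unadjusted p below 0.05. In the Ly-6D- CpG group, leaving out replicate 2 gave a median of -0.12, and leaving out replicate 3 gave -0.36, with 6 lower.

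Plasmacytoid dendritic cell markers were, as a mean, higher in Ly-6D+ CLPs under both treatments. The mean level of 14 measured markers was 9.20 to 9.38 in Ly-6D+ CLPs after PBS and 9.27 to 9.43 after CpG. In Ly-6D- CLPs it was 7.63 to 7.83 and 7.91 to 8.02. The list holds Ly6d, the gene of the sorting marker, whose own gap was 4.35 after PBS and 4.85 after CpG. Part of the gap in mean level was therefore set by the sort. The median gap over the 14 markers was 1.03 after PBS and 1.05 after CpG. Their differences were 7 positive and 7 negative (median -0.04), with 2 higher and 5 lower at an unadjusted p below 0.05. Without Ly-6D+ PBS replicate 1 they were 5 positive and 9 negative (median -0.22, 3 lower). Cd300c, an activating receptor of the CD300 family, read 7.22, 7.35 and 6.87 in Ly-6D- CLPs after PBS and 8.52, 8.39 and 8.15 after CpG. Its Ly-6D+ arrays overlapped, at 9.28 and 9.42 after PBS and 8.79, 8.88 and 9.61 after CpG, and its difference was -1.47 (SE 0.31, limma adjusted p = 0.538). Bst2, also an interferon-stimulated gene, had a difference of -0.40.

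The receptor of CpG itself was measured in all groups. Tlr9 read 6.70, 6.41 and 6.01 in Ly-6D- CLPs after PBS and 7.10, 7.41 and 7.21 after CpG. Its Ly-6D+ arrays overlapped, at 7.98 and 7.97 after PBS and 7.89, 7.70 and 8.29 after CpG. Ly-6D+ CLPs were higher by 1.60 after PBS and by 0.72 after CpG, and the difference in effect was -0.88 (SE 0.28, 95% interval -1.50 to -0.26, limma adjusted p = 0.658). Tlr7, the endosomal receptor of single-stranded RNA, went the other way. It read 8.80, 8.88 and 8.77 in Ly-6D- CLPs after PBS and 7.99, 7.97 and 8.24 after CpG, and 8.58, 8.63 and 8.53, 8.88, 8.55 in Ly-6D+ CLPs. The difference for Tlr7 was 0.80 (SE 0.18, limma adjusted p = 0.538). Unc93b1, which carries both receptors to endosomes, had a difference of -0.36. Of 16 measured genes of Toll-like receptor signalling, 6 had a positive and 10 a negative difference (median -0.12, and -0.19 to -0.04 with single arrays left out).

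MHC class II chains, which present antigens to CD4 T cells, rose after CpG in both populations. H2-Aa, an MHC class II chain, read 6.61 and 6.44 in Ly-6D+ CLPs after PBS and 9.83, 10.04 and 9.30 after CpG. The Ly-6D- arrays read 7.32, 7.30 and 6.95 after PBS and 9.70, 9.75 and 9.39 after CpG. It rose by 3.20 and 2.43 on the log2 scale, both past the test, and the difference of 0.78 did not pass (SE 0.28, 95% interval 0.15 to 1.40, limma adjusted p = 0.723). For H2-Eb1 and H2-Ab1, the other class II chains called, the differences were 0.50 (-0.25 to 1.25) and 0.18 (-0.41 to 0.76). The transactivator gene Ciita had a difference of 0.14 (-0.49 to 0.77).

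Not all genes of the class II pathway had that shape. Ifi30, the lysosomal thiol reductase that unfolds antigens, read 8.06 and 8.16 in Ly-6D+ CLPs after PBS and 9.16, 9.15 and 8.94 after CpG. Its Ly-6D- arrays read 7.90, 7.61 and 6.97 after PBS and 10.10, 9.81 and 9.27 after CpG. Both populations were apart in the same direction, and the difference was -1.25 (SE 0.37, limma adjusted p = 0.622). Of 12 measured class II genes, 10 had a positive difference (median 0.34), and 2 were higher and 1 lower at an unadjusted p below 0.05. Leaving out Ly-6D+ PBS replicate 2 gave a median of 0.21, and Ly-6D- PBS replicate 3 one of 0.22. The count of higher genes moved both ways. It was 4 with Ly-6D+ CpG replicate 3 left out, and 1 with replicate 1 or replicate 2 of that group left out. Leaving out Ly-6D+ PBS replicate 2 also gave 1. The 16 measured class I genes split into 8 and 8 (median 0.0050), with 0 past an unadjusted p of 0.05 in either direction.

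In the fit of all 11 arrays, genes induced by interferon gamma did not lean one way. Among the 15 GTPases and chemokines measured, 9 had a positive difference, and the median was 0.06, beside median effects of 0.74 and 0.66. An unadjusted p below 0.05 was reached by 1 of them, which was higher. This turned on single arrays. When the Ly-6D+ CpG group lost its replicate 3, 4 were higher and 0 lower. When the Ly-6D- CpG group lost its own, 0 were higher and 3 lower. The median shifted between -0.10 and 0.17 over the settings tried. Igtp, an immunity-related GTPase, had a difference of -0.09 (-0.68 to 0.51), and Iigp1, of the same family, 0.88 (-0.28 to 2.05). Cxcl9, a chemokine that draws T cells, read 4.24 and 4.87 in Ly-6D+ CLPs after PBS and 6.41, 6.60 and 5.45 after CpG. On the Ly-6D- side it read 4.07, 4.77 and 4.84 after PBS and 8.03, 8.45 and 6.32 after CpG. Replicate 3 was the lowest CpG array in each population, and the interval of the difference was wide, -3.11 to 0.22.

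Of 26 measured interferon-stimulated genes, 17 had a positive difference (median 0.13), with 4 higher and 1 lower at an unadjusted p below 0.05. With single arrays left out the median ran from 0.06, where Ly-6D+ PBS replicate 2 was dropped, to 0.29, where Ly-6D- CpG replicate 2 was, and 2 to 7 were higher. Ddx58, the RIG-I sensor of viral RNA, read 7.37, 7.42 and 7.06 in Ly-6D- CLPs after PBS and 6.21, 6.40 and 6.78 after CpG. Its Ly-6D+ arrays all lay between 6.09 and 6.24, and the difference was 0.82 (SE 0.22, limma adjusted p = 0.622). Irf7, the interferon regulatory factor downstream of Tlr9, had a difference of -0.19 (95% interval -0.78 to 0.40).

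Separate tests of CpG in each population called 6 genes for Ly-6D+ CLPs (0.0271%) and 121 for the Ly-6D- population (0.546%), 122 for either and 5 for both. These unequal counts are no test of a difference: 0 of the 122 passed the test of the difference itself. The counts also moved with single arrays. The 121 became 94 without Ly-6D+ CpG replicate 3, 309 without replicate 3 of the Ly-6D- CpG group, and 5 to 69 without any single one of the other arrays. The 6 became 16 without Ly-6D+ CpG replicate 3, 15 without Ly-6D+ PBS replicate 2 and 11 without Ly-6D- CpG replicate 3.

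Of the 122 called genes, 100 had effects of the same sign in both populations and 22 of opposite sign. The 67 genes that rose in Ly-6D- CLPs had a median effect of 1.01 there and of 0.20 in Ly-6D+ CLPs. The 54 that fell had medians of -0.83 and -0.15. Their calls used the Ly-6D- arm of the contrast, which pulls the difference towards that arm, so these medians are a description. Unadjusted p was below 0.05 for 97 of the 122 (79.5%, against 6.37% of all genes), and nothing is read from that share for the same reason. The 95% interval lay within 2-fold for 38 of them (31.1%).

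Ehd3, an endocytic recycling ATPase, was the only gene called in Ly-6D+ CLPs and not in Ly-6D- CLPs. It read 4.23 and 4.92 in Ly-6D+ CLPs after PBS and 7.08, 7.43 and 6.27 after CpG, and in Ly-6D- CLPs 4.10, 4.21 and 4.20 after PBS and 5.09, 5.17 and 5.42 after CpG. CpG arrays were higher in both populations, and the difference was 1.29 (SE 0.40, 95% interval 0.41 to 2.17, limma adjusted p = 0.636). The other genes called in Ly-6D+ CLPs besides the class II chains were Muc13, a membrane mucin (0.43), and Gm4951 (0.61).

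The largest difference among genes called in Ly-6D- CLPs was that of the membrane protein gene Tmem178. It read 4.20, 3.83 and 4.20 there after PBS and 6.38, 6.42 and 5.04 after CpG, and its Ly-6D+ arrays overlapped, at 3.86 and 4.73 after PBS and 4.12, 4.09 and 4.21 after CpG. The difference was -2.03 (SE 0.51, limma adjusted p = 0.612). Others of this kind were Pros1, the anticoagulant protein S (-1.46), Cttnbp2nl (-1.38, and -0.58 with low signals damped, at a mean level of 3.07), the chemokine gene Ccl9 (-1.25) and Ffar2, a receptor of short-chain fatty acids (-1.17). At the other end, the calcium-binding S100a4 had a difference of -0.03 (-0.36 to 0.30), and the phospholipid-binding Anxa5 one of -0.11 (-0.48 to 0.27). Fnbp1l and Crim1, lower after CpG in both populations, had differences of -0.06 (-0.47 to 0.36) and 0.15 (-0.27 to 0.57). For these 4 genes the interval excludes a 2-fold difference.

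**Figure D4:**
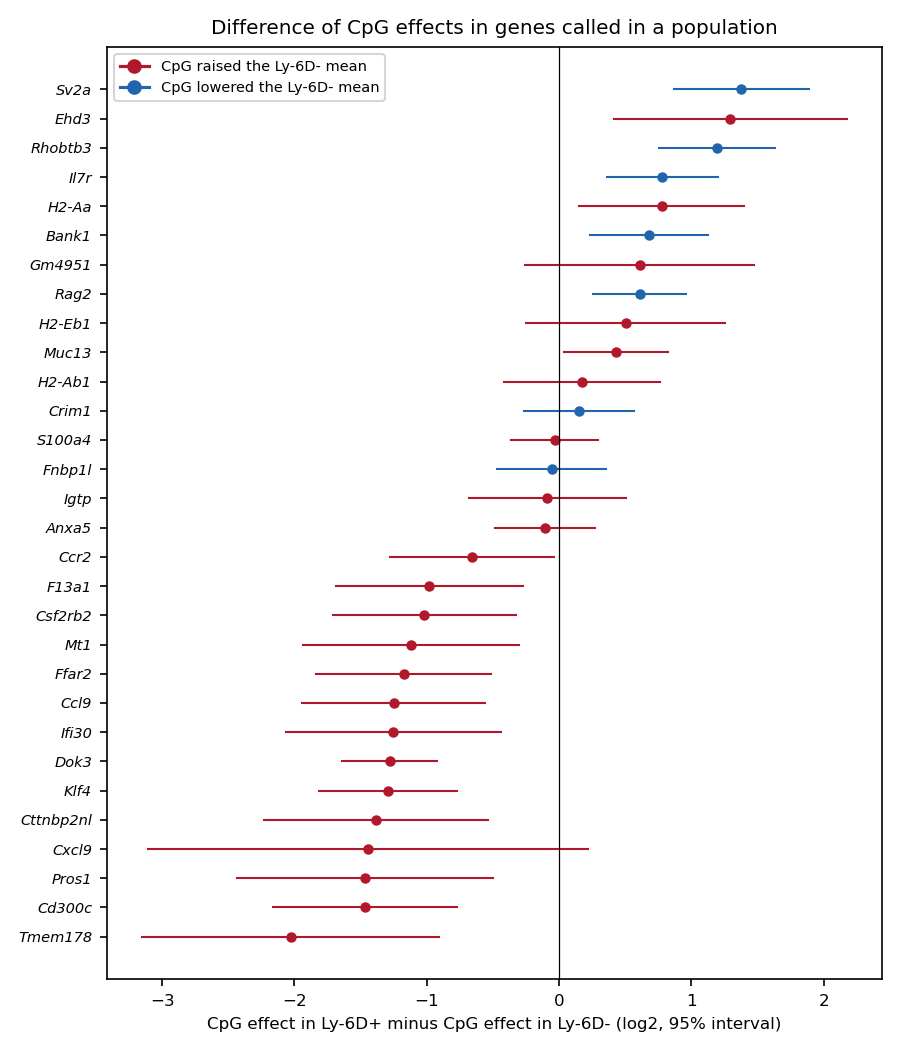
Difference of CpG effects (log2) with its 95% interval for 30 genes called for CpG in at least one population, red where the Ly-6D- mean was higher after CpG and blue where it was lower. Intervals of H2-Ab1, Igtp, S100a4 and Fnbp1l include 0, and those of Tmem178, Cd300c and Ehd3 do not, although none passed after adjustment.

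Genes were also chosen by the CpG effect averaged over the populations, which leans on neither. That test called 107 genes (0.482%), and 0 of them passed the test of the difference. The effects had the same sign in both populations for all 107, which a choice by their average favours, and for 12267 of all 22180 genes. Of the 107, 51 had a positive and 56 a negative difference, and the 95% interval lay within 2-fold for 63 (58.9%). The 62 that rose had median effects of 0.72 in Ly-6D+ and 0.92 in Ly-6D- CLPs, and the 45 that fell had -0.55 and -0.75. With unequal groups the average and the difference keep a correlation of 0.111 by design. The 107 became 216 without Ly-6D- CpG replicate 3, 82 without Ly-6D+ CpG replicate 3, and 6 to 51 without any single one of the other arrays.

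Some inflammatory and stress genes had wide intervals. Saa3, an acute-phase protein, read 5.13 and 4.15 in Ly-6D+ CLPs after PBS and 8.73, 9.05 and 5.76 after CpG. In Ly-6D- CLPs it read 3.97, 4.37 and 3.49 after PBS and 8.76, 7.54 and 6.46 after CpG, with replicate 3 again the lowest. Its difference was -0.44 with an interval of -3.12 to 2.23, so that no order of the effects can be read for Saa3. Mt1, a metal-binding metallothionein, had a difference of -1.12, and the heat-shock gene Hspa1a one of -1.39. NF-kB subunits and targets split into 8 positive and 8 negative differences with a median of -0.00, and the 13 Bcl2 family genes into 6 and 7 with a median of -0.01.

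**Figure D5:**
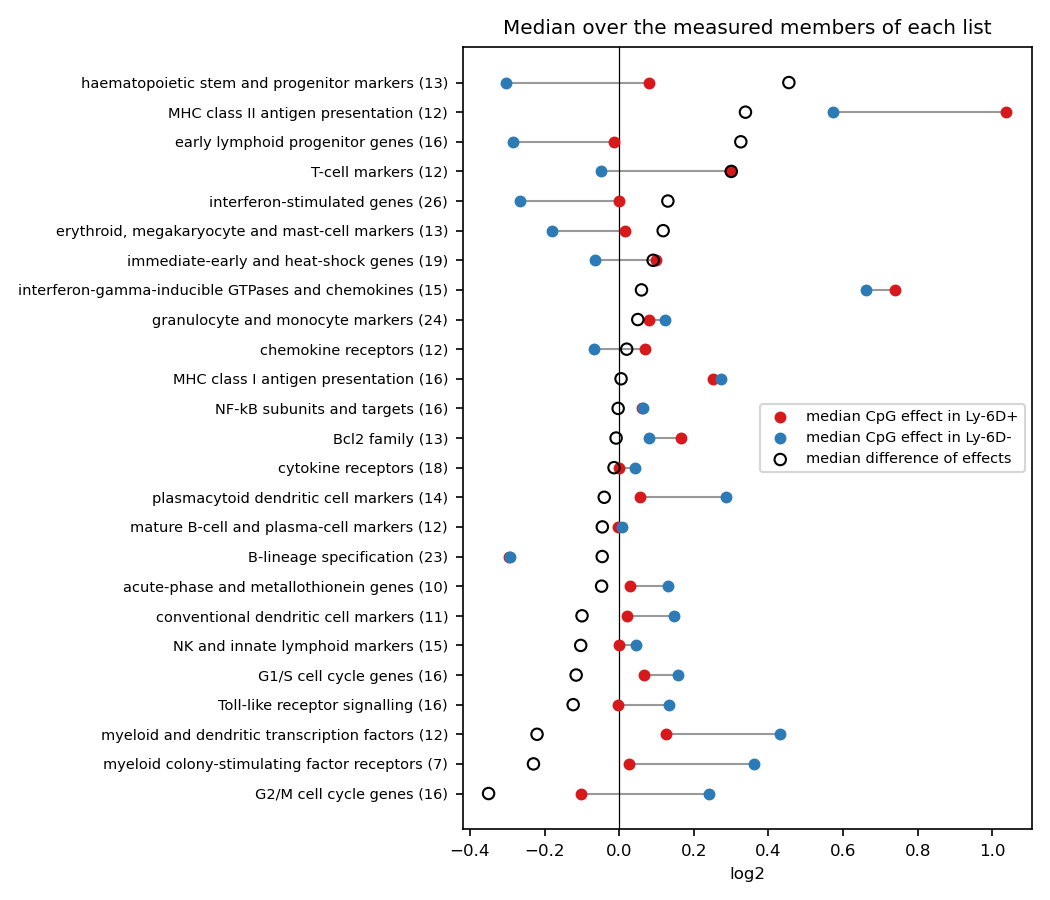
Median CpG effect (log2) of each gene list in Ly-6D+ CLPs (red) and Ly-6D- CLPs (blue), with the median difference of effects as an open circle; 1 row per list, with the number of members measured. G2/M genes have medians of -0.10 and 0.24, and stem and progenitor genes of 0.08 and -0.30.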

How the data were processed

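The authors deposited log2 expression values of 41345 probe sets on 11 arrays, which the submitters' processing notes credit to Partek and RMA without versions. RMA sets all arrays to one distribution, so a shift of all genes together would not show. Probe sets with exactly 1 gene symbol were kept (23521), and the one with the highest mean over all arrays stood for a gene (22180 genes). Arrays were grouped by their labels. A limma 3.58.1 model (R 4.3.3) with 1 mean per group and default eBayes gave the difference of effects, its standard error and 95% interval, with Benjamini-Hochberg adjustment over all genes and a threshold of 0.05. The script was tested on simulated data. The labels do not say whether same-numbered arrays belong together, so the numbers were not used as pairs in the main fit. Same-numbered arrays of different groups had correlated deviations over 0.1 in 2 of 15 pairs. Of 11 arrays, 8 correlated best with one of their own number.

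Named genes were the 12 with the smallest p in each direction, all genes called for CpG in Ly-6D+ CLPs, the 12 largest and 6 smallest differences among those called in Ly-6D- CLPs, up to 3 members of each of 25 lists, and a set of pathway genes. Predicted and numbered symbols were passed over, except among the genes called in Ly-6D+ CLPs. Mitotic genes shown with promoter letters were named after their values were seen. Members and lists were chosen with earlier results of these data known. Lists are described by counts and medians, with no test of their own. Promoter letters come from RefSeq (GRCm38.p6). The number of arrays limits the precision.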

Additional observations from a re-analysis of the deposited data

Results flagged for a closer look

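For 22 of the named genes, all CpG arrays lay on one side of the PBS arrays in Ly-6D+ CLPs and on the other side in Ly-6D- CLPs, a pattern of 196 of all 22180 genes (0.884%). The difference itself was tested for each by limma's interaction contrast, and none passed (adjusted p 0.231 to 0.757). Most were named because of a small p for this same difference, so the pattern is no separate evidence. Above PBS in Ly-6D+ and below in Ly-6D- CLPs were Sv2a (1.38), Gcnt2 (1.29), Rhobtb3 (1.19), Vldlr (1.08), Cd6 (1.04), Ccr9 (0.99), Cldn12 (0.87), Nupr1l (0.87), Olfr679 (0.80), Zfp113 (0.70), Hoxa9 (0.69), Cd34 (0.64) and Dntt (0.34). Below PBS in Ly-6D+ and above in Ly-6D- CLPs were Dok3 (-1.28), Gas7 (-1.04), Mthfd2 (-0.98), Skor1 (-0.96), E2f8 (-0.76), Defa-ps12 (-0.71), Bub1 (-0.49), Irf8 (-0.48) and Bst2 (-0.40).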

How the results depend on the processing

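Each choice was changed by itself in 24 settings. The count of genes with a different effect stayed 0 in all but one, and so did the count among genes called in at least one population. With each array left out in turn both counts ranged from 0 to 1, the 1 being an immunoglobulin kappa variable segment without Ly-6D+ PBS replicate 1, where the lone array left is assumed to vary like the other groups. The smallest adjusted p was 0.00153 to 0.812 with an array left out and 0.0573 to 0.562 in the other 13 settings, lowest with a variance trend and robust estimation. Unadjusted counts ran from 1226 to 1761 and from 1108 to 1718. With the replicate number as a block 0 genes passed, overall (smallest adjusted p 0.562), within treatment (0.278) or within population (0.171). The block within population takes nothing from Ly-6D+ CpG replicate 3, nor that within treatment from Ly-6D- PBS replicate 3, since neither has a partner. Of 11 arrays, 8 correlated best with one of their own number, which is a hint from the data and not the design. Leaving out all arrays numbered 3 was chosen after seeing the data.

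Calls for CpG alone moved more. In Ly-6D+ CLPs (6), Ly-6D- CLPs (121) and on average (107), a variance trend with robust estimation gave 18, 425 and 302 calls, and an adjusted p below 0.10 gave 10, 326 and 237. The block within treatment gave 2, 6 and 3. In Ly-6D- CLPs the block within population gave 33, array weights 207, damping of low values 325 and leaving out the dimmest genes 236. Averaged over populations, the block within population gave 33 and damping 214. In Ly-6D+ CLPs the overall block gave 11 and leaving out all arrays numbered 3 gave 16. Of 2467 values of 103 named genes, 33 changed sign and 0 came to pass, and the cause was not tested. With arrays left out, these ran from -0.27 to 0.055 for Anxa5, -0.15 to 0.0403 for Fnbp1l, -0.0205 to 0.37 for H2-Ab1, -0.23 to 0.13 for Igtp, -0.20 to 0.0695 for Pax5, -0.13 to 0.0596 for S100a4, -1.04 to 0.60 for Saa3, -0.0378 to 0.57 for Camp, -0.069 to 0.54 for Ltf and -0.0798 to 0.14 for S100a8. With the replicate block Igtp was 0.0372 and Saa3 0.17. With the block within population Igtp was 0.13, Fnbp1l 0.0403 and Saa3 0.60, and within treatment S100a4 was 0.0388. Without all arrays numbered 3, Igtp was 0.12, Fnbp1l 0.10, Irf7 0.0387, Saa3 0.26 and S100a8 -0.015. A further quantile normalisation gave 0.0076 for S100a4, median centring -0.01 for S100a8, and damping of low values -0.0053 for Ebf1.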

Other observations

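Markers of lineages outside the CLP were measured in the same contrast, and 0 of them passed. Of 13 measured erythroid, megakaryocyte and mast-cell markers, 9 had a positive difference (median 0.12, and 0.06 to 0.28 with single arrays left out). Cpa3, the mast-cell carboxypeptidase, had the largest of those named, 1.31 (SE 0.37), with a gap between the populations of -2.94 after PBS and -1.63 after CpG. The platelet glycoprotein gene Gp9 had a difference of 0.86. Of 12 measured T-cell markers, 8 were positive and 4 negative (median 0.30, and 0.14 without Ly-6D+ CpG replicate 2). The 3 with the smallest p were all positive, Cd4 at 0.89, Cd3e at 0.66 and the T-lineage factor Gata3 at 0.50. A further probe set of Gata3 gave 0.25 (SE 0.13). Cd3e and Cd4 had mean levels of 3.29 and 4.40, beside 4.33 for the median gene. Over the settings tried, their differences fell as low as 0.25 and 0.50. In the main fit, 15 natural killer and innate lymphoid markers had a median of -0.10. The median was -0.10 for 11 conventional dendritic cell markers and -0.05 for 12 mature B-cell markers. Over the settings tried, these medians ran from -0.18 to 0.04, from -0.21 to -0.0048 and from -0.24 to 0.08, in that order.

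Among 17824 probe sets without a single gene symbol, 0 passed in the same limma test, 858 (4.81%) had an unadjusted p below 0.05, and the smallest adjusted p was 0.076.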
